A study of Homo sapiens with 6 samples.

Results

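The 37 genes of the human mitochondrial chromosome were followed in MDA-MB-231 cells grown with or without vitamin C. They are every gene that the GENCODE 44 annotation of GRCh38 places on chrM, a circle of 16569 bases, a set taken up with earlier results of these data known, and all 37 were among the 60675 gene identifiers of the count files. They comprise 13 protein-coding genes, 2 ribosomal RNA genes and 22 transfer RNA genes, each a single exon without introns. MDA-MB-231 is an established human breast cancer line that lacks the estrogen, progesterone and HER2 receptors and is mesenchymal in character. The control group was 3 wells without added vitamin C, and the vitamin C group was 3 wells given 100 μM sodium ascorbate, with fresh medium daily, over 3 days. Ribosomal RNA was removed, the rest was sequenced as read pairs, and the counts of read pairs per gene deposited by the authors are the data used here.

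Reads counted in genes ranged from 17664345 to 22373591 in the control libraries and from 13434130 to 19553914 in the vitamin C libraries. Read pairs that did not map made up 24.2%, 34.4% and 32.9% of control 1, 2 and 3, against 40.7%, 49.5% and 24.7% of vitamin C 1, 2 and 3. Levels are given as CPM, gene counts scaled to a common total with TMM factors, and the SD is over the 3 wells of each group. Changes are log2 ratios of the vitamin C to the control group (log2 fold changes) from edgeR's quasi-likelihood test on all genes, with the standard error (SE) and the Benjamini-Hochberg adjusted p over the 15261 genes tested. A gene is said to rise or fall only at an adjusted p under 0.05. The methods give 3 wells per group in each experiment and repeats of each experiment, so the sequenced wells may all be from 1 experiment, and the p-values speak only to well-to-well spread, part of which may be technical. The mesenchymal markers VIM, CD44, CAV1, AXL and MSN lay between 565 and 1316 CPM, while ESR1, the estrogen receptor, and DCN, of fibroblasts, had 0 counts in every library, and the leukocyte genes PTPRC and CD3E had at most 2. The summed level of 5 luminal epithelial markers was 247 to 324 CPM in control and 366 to 403 CPM in vitamin C libraries. Among them EPCAM (0.66, adjusted p = 0.00343) and KRT8 (0.40, adjusted p = 0.0220) rose in the edgeR fit. The 3 fibroblast markers summed to 6.72 to 10.7 CPM and 12.5 to 14.4 CPM, and the 3 leukocyte markers to 0.683 to 1.39 CPM and 1.26 to 2.01 CPM. Most of the fibroblast sum was PDGFRB, at 5.86 to 13.2 CPM over the libraries, while LUM had 8 to 25 counts. The leukocyte gene CD14 had 12 to 39 counts. The part of these markers in the mitochondrial values was not tested.

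Mitochondrial DNA encodes core subunits of complexes I, III and IV of the respiratory chain and of ATP synthase, along with the rRNAs and tRNAs that the organelle needs to translate them. Both strands, called heavy and light after their base composition, are copied into long RNAs, and enzymes that cut at the tRNAs release most of the mRNAs and rRNAs from them. The proteins that copy, cut and modify this RNA, and those of its ribosome, are encoded by nuclear genes, made in the cytosol and imported. Of the 13 mRNAs, 12 are copied from the heavy strand and only MT-ND6 from the light strand. The heavy strand also gives both rRNAs and 14 tRNAs, and the light strand the other 8 tRNAs.

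In control cells the counts per kilobase of gene differed strongly between the mRNA genes, although most share a precursor. Per kilobase of gene, the subunits of cytochrome c oxidase, complex IV, led. MT-CO1, which carries the catalytic centre, stood at 3027 ± 238 CPM per kilobase (SD, n = 3). MT-CO2, which accepts electrons from cytochrome c, followed with 2352 ± 185 and MT-CO3 with 1841 ± 161 CPM per kilobase. The control ranges of MT-CO1 and MT-CO2 did not overlap, nor did those of MT-CO2 and MT-CO3. MT-ATP8, a small ATP synthase subunit, came next on the same scale with 1245 ± 533, but its range overlapped those of MT-CO3 above and of the complex I subunit MT-ND3 below, at 1182 ± 156. Then came MT-ND4L with 638 ± 323 and MT-ATP6, part of the proton channel of ATP synthase, with 599.9 ± 85.4, and these ranges overlapped as well. MT-ND4, at 438 ± 39.2 CPM per kilobase, did not overlap the next in rank on either side, MT-ATP6 and MT-ND2. The wide control range of MT-ND4L, 351 to 988, spanned that of MT-ND4. The last 5, in which each range overlapped the next, were MT-ND2 (324 ± 36.7), MT-ND1 (321 ± 41.1), MT-ND6 (274 ± 27.7), MT-CYB of complex III (254 ± 14.8) and MT-ND5 (205 ± 33.1). MT-ND5, the longest gene of the chromosome at 1812 bases, thus had the lowest level per length of the 13 mRNAs in the control group. Levels were divided by full gene length, although fewer stretches of a read length fit within a short gene. MT-ATP8 (207 bases) held 83, MT-ND4L (297 bases) 173 and MT-ND5 1688. In MT-CO1 and MT-ND2, 19.9% and 20.7% of such stretches had an exact copy in an annotated pseudogene. MT-ATP8 and MT-ND4L also overlap the next gene, and read pairs over both were set aside. How far these points set the order was not tested, and the order need not be that of mRNA levels.

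**Figure D1:**
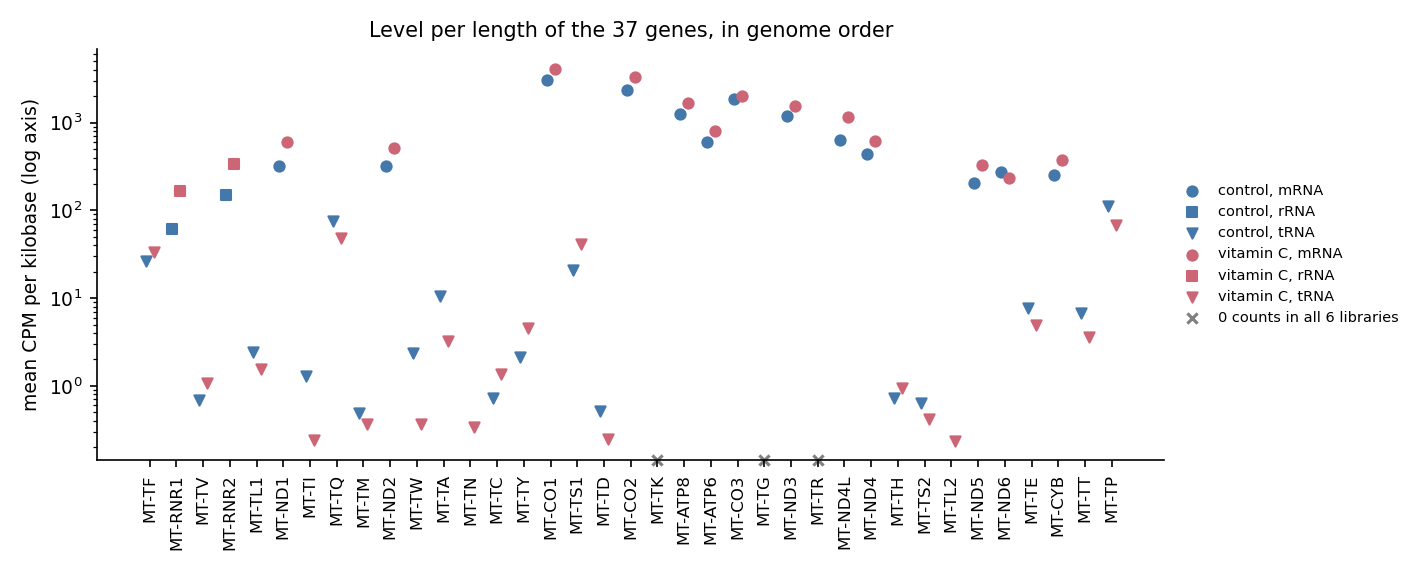
Mean level of the 37 mitochondrial genes in genome order, in CPM per kilobase of gene on a log axis, with 1 point for the control and 1 for the vitamin C group (n = 3 each), shapes for the class and crosses for the 3 tRNAs with 0 counts, and no point for a group at 0. MT-CO1 leads the mRNAs at 3027 CPM per kilobase in the control mean and MT-ND5 comes last at 205, while the rRNAs left after depletion lie at 148 (MT-RNR2) and 61.6 (MT-RNR1).

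The 3 classes of mitochondrial RNA took very different shares of the libraries. The 13 mRNAs made up 1.03%, 1.18% and 1.10% of the gene counts in control 1, 2 and 3, against 1.79%, 1.71% and 1.01% in vitamin C 1, 2 and 3. Vitamin C 1 and 2 lay above every control library and vitamin C 3 lay below all of them, so the groups overlapped. The group means were 1.10% ± 0.0734 and 1.5% ± 0.43 (SD, n = 3 each), with a two-sided exact permutation p of 0.4, and the smallest p this design allows is 0.1. Over all read pairs of a library, mapped or not, the mRNAs held 0.509%, 0.508% and 0.462% in control against 0.639%, 0.517% and 0.488% in vitamin C libraries. On that scale vitamin C 3 lay within the control range, vitamin C 2 was little above it, and the means of 0.493% ± 0.0270 and 0.548% ± 0.0798 (SD, n = 3 each) were closer, with the same exact permutation p of 0.4. Counting error was small beside the spread of the share of gene counts, since the Wilson 95% intervals of the shares of the mRNAs reached at most 0.0071 percentage points to either side. Intervals of this kind cover counting error only. In bulk RNA, more mitochondrial RNA per cell and less of all other RNA cannot be told apart.

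The 2 rRNAs, which the depletion kit is meant to remove, held 0.0149%, 0.0232% and 0.0487% of control and 0.0342%, 0.0599% and 0.113% of vitamin C gene counts. Their share spanned overlapping ranges in the groups (exact permutation p = 0.2, adjusted over the 3 classes 0.4). The 22 tRNAs together held only 0.00138%, 0.00242% and 0.00187% in control against 0.00185%, 0.00153% and 0.00109% in vitamin C libraries (exact permutation p = 0.4, adjusted 0.4). Over all read pairs, however, the tRNAs held 0.000680%, 0.00105% and 0.000782% against 0.000663%, 0.000464% and 0.000527%. Every vitamin C library lay below every control library, with an exact permutation p of 0.1, the smallest possible, and 0.3 adjusted over the 3 classes. The nearest values, of control 1 and vitamin C 1, rest on 243 and 249 counts, and their gap is small beside counting error. On the other scale, the share of gene counts, the order of these 2 libraries was the reverse. There the Wilson interval of control 1 ran from 0.00121% to 0.00156%, and vitamin C 1 lay above it at 0.00185%. Unmapped read pairs lower the share of read pairs for every gene. They made up 40.7%, 49.5% and 24.7% of vitamin C 1, 2 and 3, against 24.2% to 34.4% of control libraries. How many of all genes separated on this scale was not tested.

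**Figure D2:**
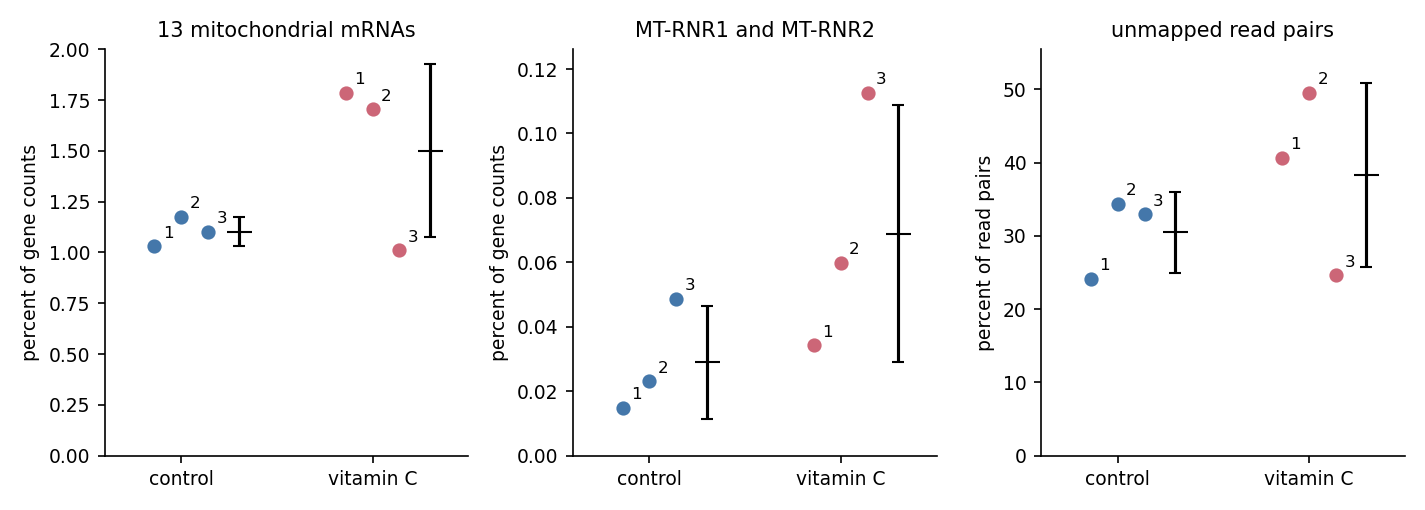
Share of each library's gene counts, in percent, held by the 13 mRNAs and by the 2 rRNAs of the mitochondrial chromosome, and the percent of read pairs that did not map, with 1 numbered point per library and a bar for the group mean ± SD. The mRNA share is 1.79% and 1.71% in vitamin C 1 and 2 but 1.01% in vitamin C 3, below the lowest control at 1.03%, and the same libraries have 40.7%, 49.5% and 24.7% of read pairs unmapped.

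Of the 37 genes, 19 had enough counts to be tested, namely the 13 mRNAs, both rRNAs and 4 tRNAs, and 18 tRNAs did not. MT-ND5 rose and the counts of MT-TP, a light-strand tRNA gene, fell, while the other 17 did not pass. Over all 15261 genes tested, 7.08% changed, with 3.60% higher and 3.48% lower. The 12 heavy-strand mRNAs all had positive log2 fold changes, from 0.13 for MT-CO3 to 0.92 for MT-ND1, with a median of 0.49, whereas the median of all genes tested was 0.02. Without adjustment, 10 of the 13 mRNAs had an edgeR p under 0.05 with a higher level and 0 with a lower one, where 14.3% of all genes tested were higher and 13.1% lower by that measure. Most of these mRNAs share a precursor and many moved alike within a library. They are therefore not 13 independent observations, and such counts are a description only. DESeq2, the other tool of the study, called MT-ND3, MT-ND4 and MT-ND5 higher and MT-TP lower, against 4.11% and 5.97% of all genes it tested. MT-ND5 and MT-TP were called by both tools, as were 2.99% of all genes in the higher and 3.34% in the lower direction.

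MT-ND5 (ENSG00000198786, chrM:12337-14148, plus strand) encodes a proton-pumping subunit of complex I. Its level was 312, 371 and 432 CPM in control 1, 2 and 3, against 654, 697 and 442 CPM in vitamin C 1, 2 and 3. Every vitamin C library lay above every control library, but vitamin C 3 by a small margin. Non-overlap in that direction was seen for 15.7% of all genes tested. The means were 372 ± 59.99 and 598 ± 136 CPM (SD, n = 3), giving a log2 fold change of 0.68 (SE 0.16) and, in edgeR, an adjusted p of 0.0316. With 1 library left out, the edgeR adjusted p ran from 0.0684 to 0.131 where control 1, control 2, vitamin C 1 or vitamin C 2 was the missing one. It was 0.0333 without control 3 and 0.000943 without vitamin C 3.

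The other complex I subunits copied from the heavy strand showed the same split among the libraries, with vitamin C 1 and 2 above all controls. MT-ND1 (chrM:3307-4262), whose product sits near the site where ubiquinone is reduced, was at 270, 302 and 348 CPM in control and at 556, 867 and 320 CPM in vitamin C libraries. Vitamin C 1 and 2 exceeded all controls and vitamin C 3 lay within the control range, and the log2 fold change of 0.92 (SE 0.26) had an edgeR adjusted p of 0.0529. MT-ND2 (chrM:4470-5511), another membrane subunit, was at 305, 328 and 380 CPM against 573, 711 and 336 CPM, giving a log2 fold change of 0.68 (SE 0.20) and, in edgeR, an adjusted p of 0.0628. MT-ND4 (chrM:10760-12137), a pumping subunit like MT-ND5, was at 548, 605 and 656 CPM against 970, 936 and 619 CPM, a log2 fold change of 0.48 (SE 0.14). It missed the threshold in edgeR (adjusted p = 0.0607) and passed it in DESeq2. For the small subunit MT-ND3 (chrM:10059-10404), levels were 455, 422 and 350 CPM in control and 505, 665 and 437 CPM in vitamin C libraries, with a log2 fold change of 0.39 (SE 0.14) and, in edgeR, an adjusted p of 0.103. In all 4 of these genes vitamin C 3 lay inside the control range.

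MT-CYB (chrM:14747-15887) encodes cytochrome b, the mitochondrially encoded subunit of complex III. It was at 272, 306 and 291 CPM in control and at 502, 523 and 259 CPM in vitamin C libraries. Here vitamin C 3 was the lowest of all 6 libraries, and the log2 fold change of 0.56 (SE 0.20) had an edgeR adjusted p of 0.0993. The complex IV subunits were alike in this. MT-CO1 (chrM:5904-7445) was at 4634, 5052 and 4319 CPM against 7534, 7274 and 4183 CPM, with a log2 fold change of 0.44 (SE 0.17) and, in edgeR, an adjusted p of 0.128. MT-CO2 (chrM:7586-8269) was at 1529, 1755 and 1542 CPM against 2707, 2918 and 1241 CPM, with 0.51 (SE 0.23, adjusted p = 0.183 in edgeR). For MT-CO3 (chrM:9207-9990) the groups were close, at 1298, 1526 and 1505 CPM against 1973, 1570 and 1190 CPM, and its log2 fold change of 0.13 (SE 0.15, adjusted p = 0.604 in edgeR) was the smallest in size of the 13 mRNAs. Its direction turned to -0.07 without vitamin C 1.

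**Figure D3:**
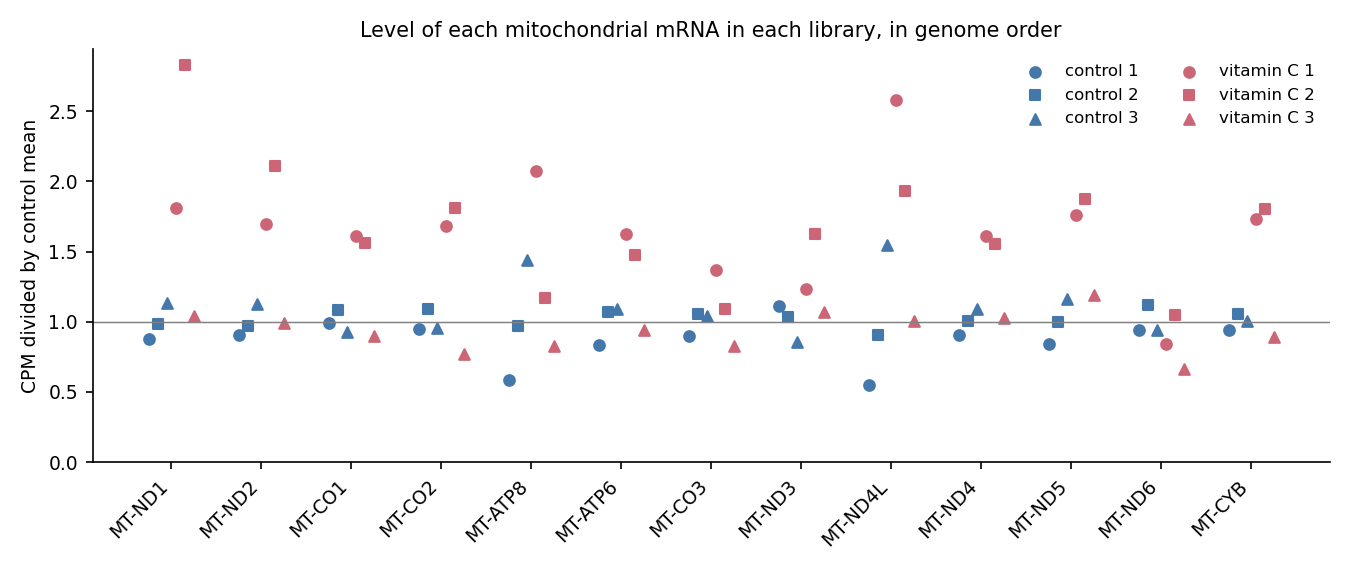
Level of each of the 13 mitochondrial mRNAs in each library, relative to its control mean, with 1 point per library. The median over the mRNAs is 0.904, 1.03 and 1.09 in control 1, 2 and 3, against 1.68, 1.63 and 0.943 in vitamin C 1, 2 and 3, and MT-ND6 lies below the other mRNAs in each vitamin C library, lowest at 0.660 in vitamin C 3.

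The vitamin C libraries thus did not move together. Vitamin C 1 exceeded every control library for 12 of the 13 mRNAs and vitamin C 2 for 11, but vitamin C 3 only for MT-ND5, and it lay below every control for 5. Vitamin C 1 and 2 were also the libraries with the highest shares of unmapped read pairs, 40.7% and 49.5%, and vitamin C 3 had 24.7%, close to the lowest control. With that share as a covariate in edgeR the median log2 fold change of the 13 mRNAs was 0.20, and MT-ND5 remained higher at 0.44 (adjusted p = 0.0266). Without vitamin C 3, edgeR called 11 mitochondrial genes higher and 0 lower, where 6.10% of all genes in that fit were higher and 6.21% lower. They were MT-ND1, MT-ND2, MT-ND3, MT-ND4, MT-ND4L, MT-ND5, MT-CO1, MT-CO2, MT-ATP6, MT-CYB and the tRNA MT-TS1. Leaving out control 1, control 2 or vitamin C 2 left 0 mitochondrial genes called in edgeR, where 0.436%, 0.523% and 1.73% of all genes were called higher. At an unadjusted p under 0.05, 5, 8 and 5 of the 13 mRNAs were higher in these fits, against 9.92%, 10.9% and 11.5% of all genes. By the same measure 0, 0 and 1 mRNAs were lower, the last being MT-ND6, against 9.01%, 10.3% and 10.9% of all genes. Without control 3, MT-ND5, MT-ND4L and both rRNAs were higher and MT-TP was lower, against 1.97% and 2.50% of all genes, and without vitamin C 1 only MT-RNR1 was higher, against 1.47%.

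**Figure D4:**
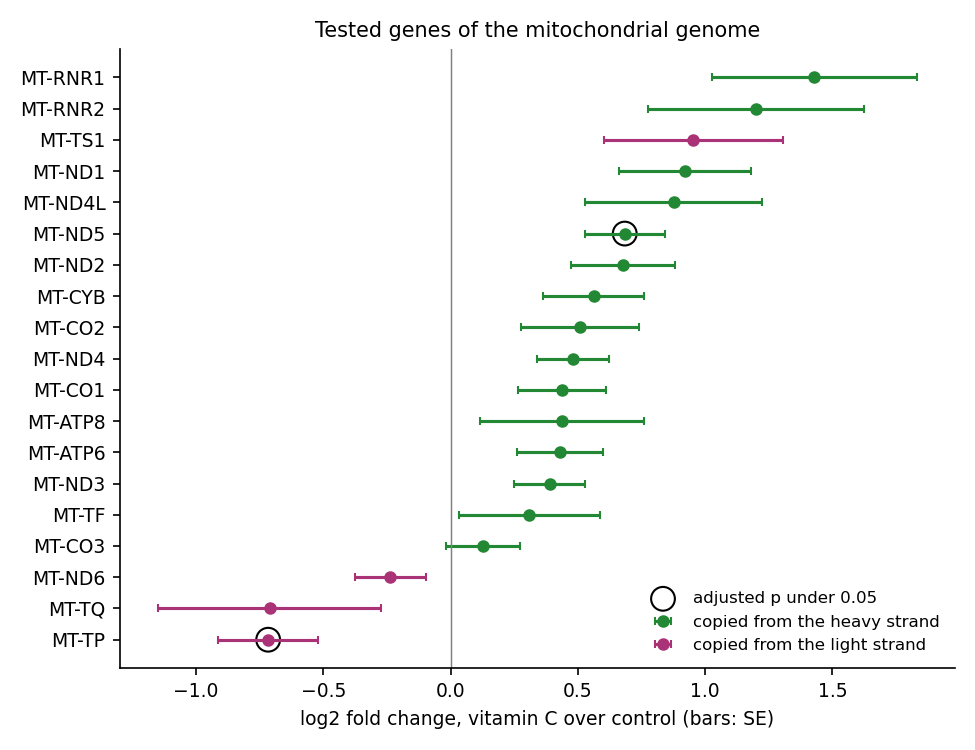
Log2 ratio of the vitamin C to the control group for the 19 tested mitochondrial genes, sorted by size, with bars of 1 SE from edgeR, colours for the strand a gene is copied from and circles at an adjusted p under 0.05. The 12 heavy-strand mRNAs lie above 0, from 0.13 to 0.92, MT-ND6 at -0.24 and MT-TP at -0.72 lie below it, and only MT-ND5 and MT-TP are circled.

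Some neighbouring genes share bases, so their reads could not all be given to 1 gene. The end of MT-ATP8 and the start of MT-ATP6 overlap on the same strand, and the stretch around the overlap shows in capitals the 46 shared bases (chrM:8515-8584, plus strand, GRCh38).
MT-ATP8 and MT-ATP6: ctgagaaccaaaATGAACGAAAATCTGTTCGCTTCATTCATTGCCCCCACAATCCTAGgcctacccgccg
The same holds for 7 bases between MT-ND4L and MT-ND4 (chrM:10736-10790, plus strand), again in capitals.
MT-ND4L and MT-ND4: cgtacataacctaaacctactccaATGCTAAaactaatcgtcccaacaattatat
Each capital stretch opens with the ATG start codon of the downstream gene. Read pairs that cover 2 genes were set aside as ambiguous, and these amounted to 3.60% to 3.69% of the gene counts of a library over all genes.

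The upstream gene of each of these pairs is the short one, and MT-ATP8 and MT-ND4L varied most among control wells of the 13 mRNAs. MT-ATP8 (chrM:8366-8572, 207 bases) was at 151, 250 and 372 CPM in control and at 535, 302 and 212 CPM in vitamin C libraries, with a log2 fold change of 0.44 (SE 0.32) and, in edgeR, an adjusted p of 0.406. MT-ATP6 (chrM:8527-9207) was at 342, 438 and 446 CPM against 664, 602 and 385 CPM, with 0.43 (SE 0.17, adjusted p = 0.129 in edgeR). Groups overlapped for both ATP synthase subunits, and the fold change of MT-ATP8 was -0.01 without vitamin C 1. Counts of MT-ATP8 per count of MT-ATP6 ran from 0.443 to 0.833 in control and from 0.501 to 0.806 in vitamin C libraries. MT-ND4L (chrM:10470-10766), a small complex I subunit, was at 104, 171 and 293 CPM against 489, 367 and 190 CPM, giving a log2 fold change of 0.88 (SE 0.35) and, in edgeR, an adjusted p of 0.130. Per count of MT-ND4 it took 0.190, 0.283 and 0.447 in control against 0.504, 0.392 and 0.307 in vitamin C libraries, so that the ranges of the groups overlapped in both pairs.

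MT-ND6 (ENSG00000198695, chrM:14149-14673, minus strand) encodes a complex I subunit and is the mRNA copied from the light strand. It meets MT-ND5 end to end on opposite strands with 0 shared bases, as the joint shows, where capitals mark the end of MT-ND5 and the lower case is the complement of the end of MT-ND6 (chrM:14119-14178, plus strand, GRCh38).
MT-ND5 and MT-ND6: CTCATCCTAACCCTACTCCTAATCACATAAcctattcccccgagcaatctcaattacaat
How the counting treated strand was not given in the sources used here, and the counts bear on it only in part. A counter that ignores strand gives no reads to a gene lying wholly inside an exon of another gene of its annotation, and one that uses strand gives none where both are on the same strand. Here 104 of 136 genes inside an exon on the opposite strand (76.5%) had counts, as did 66 of 272 (24.3%) inside an exon on the same strand, but 16 and 26 of them had at least 100 counts and the same-strand genes held more counts in all, 15168 against 8913. This check therefore did not settle the strand setting, and without strand RNA copied from either strand would count for MT-ND6 and for every other gene. The tRNA counts given below bear on it too. MT-ND6 was at 136, 161 and 135 CPM in control and at 121, 151 and 94.9 CPM in vitamin C libraries. These ranges overlapped, and the means of 144 ± 14.5 and 122 ± 28.2 CPM (SD, n = 3) gave a log2 fold change of -0.24 (SE 0.14) and, in edgeR, an adjusted p of 0.297. With the unmapped share as a covariate it fell by 0.45 on the log2 scale (adjusted p = 0.0234 in edgeR).

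Measured within the mitochondrial mRNAs, a scale on which library size has no part, MT-ND6 made up less of the whole in every vitamin C library. It held 1.31%, 1.37% and 1.22% of the counts of the 13 mRNAs in control 1, 2 and 3, against 0.679%, 0.860% and 0.958% in vitamin C 1, 2 and 3. The widest Wilson 95% interval among these ran from 1.26% to 1.37%, in control 1. No vitamin C library reached the lowest control, and vitamin C 3, which was like the controls in the total, was again nearest to them. The means were 1.30% ± 0.0780 and 0.832% ± 0.141 (SD, n = 3), a ratio of 0.639. The two-sided exact permutation p was 0.1, the smallest possible here, and 0.65 when adjusted over the 13 mRNAs, so the difference did not pass. Set only against MT-ND5 and MT-CYB, the heavy-strand mRNAs on either side, MT-ND6 had 23.2, 23.7 and 18.7 counts per 100 of theirs in control against 10.4, 12.4 and 13.5 in vitamin C libraries.

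MT-CO3 was the other mRNA whose share did not overlap between groups, with 12.5%, 13.1% and 13.6% against 11.1%, 8.93% and 12.01% (ratio 0.817, exact permutation p = 0.1, adjusted 0.65). The shares of the other 11 mRNAs overlapped. MT-CO1 alone held 44.7%, 43.2% and 39.0% of the mRNA counts in control against 42.4%, 41.4% and 42.2% in vitamin C libraries. MT-ND5, which rose in CPM, held 3.02%, 3.17% and 3.91% against 3.68%, 3.96% and 4.46%, with overlap (exact permutation p = 0.2, adjusted 0.65).

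**Figure D5:**
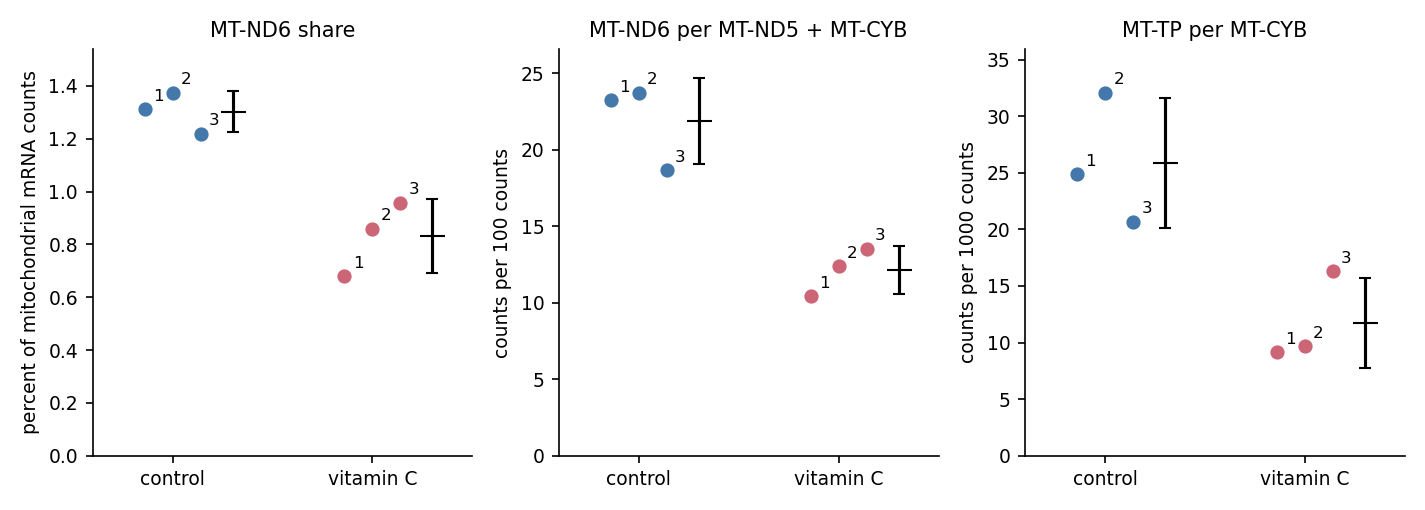
The light-strand genes MT-ND6 and MT-TP against heavy-strand mRNAs in each library, as the percent of MT-ND6 among the counts of the 13 mRNAs, MT-ND6 counts per 100 counts of MT-ND5 and MT-CYB, and MT-TP counts per 1000 counts of MT-CYB, with 1 point per library and a bar for the group mean ± SD. In each panel the 3 vitamin C libraries lie below the 3 control libraries, for example at 0.679% to 0.958% against 1.22% to 1.37% for the share of MT-ND6. Both ratios were chosen after the values were seen, and they use MT-ND5, called higher, and MT-TP, called lower. The other tested light-strand genes are not shown. In CPM, MT-TS1 lay higher in every vitamin C library, as did 15.7% of all genes tested, and MT-TQ overlapped.

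The transfer RNAs of mitochondria, of 59 to 75 bases, are shorter than a read. A full-length read over a tRNA gene therefore reaches beyond it and is counted for it only where it meets no other gene, of either strand unless the counting used strand. Such a read comes from RNA longer than the tRNA, so the counts of these genes need not be levels of the mature tRNAs. How much of them came from mature tRNA was not tested. All 22 tRNAs together had 1842 counts. The 4 that were tested held 1615 of these (87.7%). They are shown with the anticodon in capitals, 5′ to 3′ on the strand of the gene.
MT-TP: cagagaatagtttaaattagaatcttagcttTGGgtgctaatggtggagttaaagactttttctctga
MT-TQ: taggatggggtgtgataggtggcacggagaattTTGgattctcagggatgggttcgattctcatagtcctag
MT-TS1: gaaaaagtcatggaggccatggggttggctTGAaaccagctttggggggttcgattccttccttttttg
MT-TF: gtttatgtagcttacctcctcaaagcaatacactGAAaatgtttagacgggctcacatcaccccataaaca
MT-TP (chrM:15956-16023), for proline, MT-TQ (chrM:4329-4400), for glutamine, and MT-TS1 (chrM:7446-7514), for serine, lie on the minus strand and are copied from the light strand. MT-TF (chrM:577-647), for phenylalanine, is the first gene of the heavy-strand transcript.

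MT-TP (ENSG00000210196), the tRNA with the most counts, had 119, 221 and 121 counts in control against 62, 70 and 84 in vitamin C libraries. On the CPM scale these were 6.78, 9.81 and 6.02 against 4.60, 5.07 and 4.22, and every vitamin C library lay below every control library, as for 16.6% of all genes tested. The log2 fold change was -0.72 (SE 0.20), with an adjusted p of 0.0495 in edgeR and 0.0239 in DESeq2. The edgeR call was close to the threshold, and it was lost in every fit that left out 1 library other than control 3, with adjusted p-values of 0.0695 to 0.172. It was also lost with upper-quartile factors, without factors, in limma-voom and with the unmapped share as a covariate, where the log2 fold change was -0.68, -0.72, -0.70 and -0.82. These sizes are close to that of the full fit, while over fits without 1 library it ran from -0.48 (without control 2) to -0.86 (without control 3). Per 1000 counts of MT-CYB, the nearest mRNA gene, copied from the other strand, MT-TP had 24.9, 32.1 and 20.7 counts in control against 9.15, 9.70 and 16.3 in vitamin C libraries, a ratio chosen after the values were seen.

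The other tested tRNAs did not pass. MT-TQ had 39, 179 and 127 counts in control against 81, 34 and 41 in vitamin C libraries, giving a log2 fold change of -0.71 (SE 0.44) and, in edgeR, an adjusted p of 0.320 with overlapping groups. MT-TS1 went the other way, with 27, 35 and 25 counts against 28, 66 and 35 (log2 fold change 0.95, SE 0.35, adjusted p = 0.110 in edgeR). In CPM its vitamin C libraries all lay above the controls, as for 15.7% of all genes tested. Without vitamin C 2 its log2 fold change was 0.39 (adjusted p = 0.397 in edgeR). MT-TF had 26, 36 and 51 counts against 41, 32 and 35, with 0.31 (SE 0.28, adjusted p = 0.502 in edgeR). The 3 tested light-strand tRNAs therefore differed in direction among themselves.

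The counts of a tRNA went with the room beside its gene. A total of 9 tRNAs had at least a read length without another gene of the same strand on at least 1 side, and these held 1790 of the 1842 counts (97.2%), from 11 for MT-TW to 677 for MT-TP. The light strand, with fewer genes, had 6 of them (MT-TQ, MT-TA, MT-TY, MT-TS1, MT-TE and MT-TP) and the heavy strand 3 (MT-TF, MT-TW and MT-TT). The other 13 held 52 counts, at most 16 each, and were MT-TV, MT-TL1, MT-TI, MT-TM, MT-TN, MT-TC, MT-TD, MT-TK, MT-TG, MT-TR, MT-TH, MT-TS2 and MT-TL2. MT-TK, MT-TG and MT-TR had 0 counts in all 6 libraries, which allows up to 3 counts, or 0.134 to 0.223 CPM. Among untested tRNAs the highest count over all libraries was 56, for MT-TA, the alanine tRNA. MT-TQ, with 501 counts, overlaps MT-TI and lies 1 base from MT-TM, both on the opposite strand. MT-TS1, with 216 counts, adjoins MT-CO1 and lies 3 bases from MT-TD, also on the opposite strand. If strand were ignored, a full-length read over MT-TQ or MT-TS1 would also meet another gene and be ambiguous. The lengths of the trimmed reads were not examined. Light-strand tRNAs held 83.1%, 88.7% and 79.6% of tRNA counts in control against 76.7%, 83.5% and 80.8% in vitamin C libraries (exact permutation p = 0.5).

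The rRNA genes MT-RNR1 (chrM:648-1601), for the small ribosomal subunit, and MT-RNR2 (chrM:1671-3229), for the large one, were measured only as what remained after depletion. MT-RNR1 was at 33.0, 42.7 and 100.4 CPM in control and at 79.5, 155 and 239 CPM in vitamin C libraries. MT-RNR2 was at 117, 187 and 388 CPM against 261, 462 and 866 CPM. The spread within each group was wide and the groups overlapped for both. The log2 fold changes were 1.43 (SE 0.40, adjusted p = 0.0533 in edgeR) for MT-RNR1 and 1.20 (SE 0.42, adjusted p = 0.0990 in edgeR) for MT-RNR2. The rRNAs did not follow the mRNAs across libraries, since vitamin C 3 had the most rRNA, 11.2 counts per 100 of the mRNAs, and the lowest mRNA share. That ratio was 1.45, 1.97 and 4.42 in control against 1.92 and 3.51 in vitamin C 1 and 2. Counts of MT-RNR1 per count of MT-RNR2 stayed within 0.228 to 0.282 in control against 0.276 to 0.335 in vitamin C libraries. How far the depletion of each library set these rRNA values was not tested.

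The nucleus carries copies of mitochondrial DNA, and reads that fit both places equally well are not counted as unique. An exact copy in an annotated pseudogene was found for 20.7% of the windows of 1 read length in MT-ND2, 19.9% of MT-CO1, 5.29% of MT-ND1 and 3.05% of MT-ATP6, and for 0 windows of the other 11 mRNA and rRNA genes, MT-ND5, MT-ND6 and MT-CYB included. Of 391 such pseudogenes, 108 had counts and 6 had over 100, and 3 neighbours on chromosome 1 held 95.6% of the counts. MTATP6P1 (chr1:633696-634376) had 1569, 2514 and 2185 counts in control against 2646, 2757 and 1902 in vitamin C libraries, or 0.244 to 0.262 and 0.248 to 0.332 per count of MT-ATP6. MTCO1P12 (chr1:631074-632616) had 754, 963 and 610 against 689, 748 and 489 counts, or 0.587 to 0.926 per 100 counts of MT-CO1, and MTND2P28 had 141, 168 and 179 against 185, 209 and 140. In CPM all 3 were highest in vitamin C 1 and 2, as their mitochondrial counterparts were. Whether these reads came from the nuclear or the mitochondrial copy was not tested.

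Nuclear genes that serve the mitochondrial genome were read in the same fit from 10 lists of 187 genes, of which 180 were tested. Of these, 20 fell (11.1%) and 2 rose (1.11%), against 3.48% and 3.60% of all genes, and the median log2 fold change was -0.10. Several of these genes, among them TFAM, SLIRP, COX7B, COX6C and ATP5F1E, have annotated processed pseudogenes, which leaves their counts less certain. Only 2 of these falls remained without control 1 and 2 without control 2, SLIRP and COX7B in both fits, where 0.373% and 0.394% of all genes fell.

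Among 20 genes that copy, pack and transcribe mitochondrial DNA, TFAM and TWNK fell (10%) and 18 did not pass, where 3.48% of all genes tested fell. TFAM, which packs the DNA and opens its promoters, went from 228 ± 21.0 to 171 ± 9.99 CPM (SD, n = 3), a log2 fold change of -0.41 (adjusted p = 0.0220 in edgeR). The replicative helicase TWNK went from 29.7 to 23.1 CPM (-0.36, adjusted p = 0.0406 in edgeR). Of 37 genes for processing, stability and modification of the RNA, 4 fell and 0 rose. SLIRP, which stabilizes the mRNAs together with LRPPRC, had the smallest p of the list and went from 68.7 ± 10.5 to 41.1 ± 4.88 CPM (-0.74, adjusted p = 0.00960 in edgeR). The others were the rRNA methyltransferase MRM2 (-0.41), FASTKD3 (-0.54) and the RNA-binding protein GRSF1 (-0.29).

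Of 21 tested aminoacyl-tRNA synthetases and related enzymes, which charge the tRNAs, MARS2 fell (-0.55) and GATB, of the complex that makes glutaminyl-tRNA, rose (0.47). Each is 4.76% of the list, near the shares of all genes tested, of which 3.48% fell and 3.60% rose. None of 16 translation and insertion factors passed in edgeR, with 1 gene higher and 1 lower at an unadjusted p under 0.05, against 14.3% and 13.1% of all genes. Their most abundant members were MTIF2, with 206 CPM in both groups, and TUFM, with 161 against 149 CPM. None of 8 tested regulators of mitochondrial biogenesis passed either, with 0 at an unadjusted p under 0.05, and the most abundant, YY1 and GABPA, had log2 fold changes of -0.12 and 0.01.

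The nuclear subunits that assemble with the products of the 13 mRNAs had medians below 0 in every complex. In complex I, 3 of 36 fell (8.33%, against 3.48% of all genes tested), NDUFS4 (-0.38), NDUFB9 (-0.39) and NDUFB2 (-0.40), with a list median of -0.07. In complex III, UQCRH (-0.36) and UQCRQ (-0.33) fell among 9, with a median of -0.19. Complex IV had the lowest median, -0.33, and 3 of 11 fell, namely COX7B (-0.65), COX6C (-0.62) and COX5B (-0.39). COX7B went from 72.3 ± 10.6 to 45.9 ± 5.08 CPM (SD, n = 3). In ATP synthase 5 of 18 fell, among them ATP5MJ (-0.52), ATP5MC1 (-0.59) and ATP5PO (-0.37), while ATP5F1E rose from 737 ± 86.6 to 1189 ± 263 CPM (0.69, adjusted p = 0.0199 in edgeR). Complex II, which has no mitochondrially encoded subunit, also had a median below 0, at -0.09. It had 0 of 4 called in edgeR and 1 lower at an unadjusted p under 0.05, against 13.1% of all genes. Its most abundant members SDHA and SDHD had log2 fold changes of -0.07 and -0.52 (edgeR adjusted p = 0.572 and 0.0714). The subunit mRNAs of complexes I, III and IV and of ATP synthase made in mitochondria and those made in the nucleus thus had median log2 fold changes of opposite sign, a description for which no test of the difference was made. Relative to the control mean, the median of the 13 mitochondrial mRNAs was 1.68, 1.63 and 0.943 in vitamin C 1, 2 and 3. Their median log2 fold change was 0.20 with the unmapped share as a covariate. A median below 0 was not particular to these nuclear subunits. It was -0.12 for the copying, -0.09 for the RNA processing and -0.09 for the biogenesis list. The synthetases (0.02) and translation factors (0.04) had medians above 0.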

How the data were processed

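RNA-seq of 6 libraries, 3 control and 3 vitamin C, was analysed, grouped by their labels. Per the submitters' processing notes, base calling used CASAVA 1.4, trimming Trim Galore and alignment STAR on build hg38. Raw, unnormalized counts of read pairs for each Ensembl gene were deposited by the authors. The STAR version, annotation release and strand setting were not given in the sources used here. The summary lines of each file (50.6% to 69.7% of read pairs) entered neither library sizes nor tests. GENCODE 44 held 56558 of 60675 identifiers. Counts were tested in R 4.3.3 with edgeR 4.0.16 (TMM factors 0.972 to 1.02, filterByExpr with a minimum count of 10, quasi-likelihood F test, Benjamini-Hochberg adjustment at 0.05). The biological coefficient of variation was 9.40%. DESeq2 1.42.0 and limma 3.58.1 (voom) were alternatives, and adjusted p-values that DESeq2 did not give were left out. Replicates of a group differed by more than sampling noise, with chi-square values of 4.54 to 21.6 per degree of freedom. Shares were compared by two-sided exact permutation tests of the difference of means in scipy 1.17.1, with Wilson 95% intervals. The fit was tested on simulated data.

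The mitochondrial genes and nuclear lists were chosen with earlier results of these data known. Every mitochondrial gene is accounted for. In each list at most 4 called genes with the smallest edgeR p were named, or the 2 most abundant where none was called. Nuclear copies were named by highest count. Sequences and coordinates are those of GRCh38. Further alternatives were other scaling factors, no filter, the replicate number as a block, the unmapped share as a covariate, other denominators and leaving out each library. Setting MT-ND6 against MT-ND5 and MT-CYB was added after the data were seen, as were the ratios of other gene pairs.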

Additional observations from a re-analysis of the deposited data

How the results depend on the processing

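With 3 wells per group, calls hung on single libraries. Over fits without 1 library, all calls ran from 128 (without control 1) to 1900 (without vitamin C 3) beside 1080, mitochondrial genes higher from 0 to 11 and lower from 0 to 1, nuclear list genes higher from 0 to 5 and lower from 2 to 31, and mRNAs whose shares did not overlap from 2 to 8. A share apart in all libraries stays apart when 1 is left out, so the count of shares could only rise. Without a filter on low counts edgeR called 2245 of 33769 genes tested, 1079 higher and 1166 lower. Among these were 14 mitochondrial genes higher, 4 lower and 32 nuclear list genes lower. In that fit the SE of MT-RNR1 was 0.09, against 0.40 in the main fit, while its log2 fold change was 1.41 against 1.43. For MT-CO1 the SE was 0.07 against 0.17 and the log2 fold change 0.41 against 0.44. For both genes the call went with a smaller SE and not with a larger change. DESeq2 called 3 mitochondrial genes higher and 33 list genes lower, where 4.11% of all genes it tested were higher and 5.97% lower. With the unmapped share as a covariate there were 498 calls among 15261 genes, 262 higher and 236 lower. Of these, 1 list gene was higher and 8 were lower, and MT-CO3 turned to -0.0432. Mitochondrial genes lower were 0 with upper-quartile factors, no factors or limma-voom. Upper-quartile factors split all calls into 687 higher and 377 lower, beside 549 and 531. The replicate numbers did not pair the wells (correlations of -0.0160, -0.0556 and -0.0452 between same-numbered deviations). With the replicate block, all calls were 731 among 15261 genes, 393 higher and 338 lower. Mitochondrial genes higher were 3 (MT-RNR1, MT-RNR2 and MT-ND5) and list genes lower were 13. Over fits without 1 library, MT-ATP8 ran from -0.00763 to 0.794 and MT-CO3 from -0.0664 to 0.294 in log2 fold change. Differences in share of mRNA counts, in percentage points, ran from -2.01 to 0.858 for MT-CO1, -0.698 to 1.34 for MT-CO2, -0.460 to 0.488 for MT-ATP8, -0.207 to 0.159 for MT-ATP6, -0.412 to 0.375 for MT-ND3 and -0.0764 to 0.442 for MT-ND4. Of 285 alternative log2 fold changes of single mitochondrial genes, 235 kept direction and side of the threshold, 13 lost it, 34 passed it and 3 reversed. Many of the 34 came from the fit without a filter. The class shares could not pass at any setting, since exact p-values cannot go below 0.1 with 3 against 3. Their differences, in percentage points, ran from 0.255 to 0.643 for mRNAs, from 0.0181 to 0.0573 for rRNAs and from -0.000653 to -0.000130 for tRNAs over fits without 1 library, and were 0.0550, 0.0157 and -0.000285 over all read pairs. Changes smaller than this spread between wells, and tRNAs at a few counts, were not detectable at this depth. The causes of these changes were not tested.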
